A study of Mus musculus with 53 samples.

Results

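The mitochondrial ribosomal protein genes encode the protein parts of the ribosome inside mitochondria. They were taken as every gene of the T1 pre-HSC expression table whose symbol starts with Mrpl or Mrps and a digit, with pseudogene names left out. This gave 77 genes of the 14833 listed, 48 with large subunit symbols (Mrpl) and 29 with small subunit symbols (Mrps). The rule reads names alone. RNA was measured in single cells of the mouse. The cells were T1 pre-HSCs, precursors of blood stem cells, sorted at embryonic day 11 from the aorta-gonad-mesonephros region, where such cells arise. In the KO group, 12 cells carried the genotype mH19 delta_DMR/+, a deletion of the differentially methylated region that controls the imprinted non-coding RNA H19. In the wildtype group, 9 cells carried mH19 flDMR/+, so these controls held a flDMR allele and not an unmodified locus. No label names the Cre driver, the embryo, the litter, the sort or a batch, so each genotype counted as 1 sample and no p-value was computed.

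Mitochondrial ribosomes translate only the few mRNAs of the mitochondrial genome, all for subunits of the oxidative phosphorylation complexes, which make most of a respiring cell's ATP. Their RNA comes from mitochondrial DNA, but all their proteins are made from nuclear genes in the cytosol and imported. Some of the proteins have bacterial homologues, and others exist only in mitochondrial ribosomes. Blood stem cells of adult mice are known to make proteins at low rates and to lean little on mitochondrial respiration.

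The values were RPKM, in which reads are divided by the length of the transcript and by the total reads mapped in the cell. This adjusts for length and for total reads, but a few high genes in a cell lower all others. Comparisons between genes and between cells below are on this scale. A gene was called detected at 1 RPKM or more, and levels were averaged as log2(RPKM + 1), which understates differences of low genes. The number of genes detected was 1517 to 8408 in KO cells (median 3172), against 2067 to 5716 in wildtype cells (median 4176). H19 had 0 to 186 RPKM in KO cells (median 28.1), against 231 to 1261 RPKM in wildtype cells (median 477), and the groups did not overlap. The column of wildtype cell 19 was left out, because around the rows of these genes its values followed the other cells best after a shift of 1 row. There its correlation with their mean over 481 rows was 0.34 as deposited and 0.77 after the shift. The other 21 cells were in step, with correlations of 0.61 to 0.84. The summed RPKM of 8 pre-HSC markers was under 20 in KO cells 1, 3 and 9 and in wildtype cells 13 and 14. That of 8 mesenchymal markers was above 100 in KO cells 1, 9 and 11, at 322 to 685, and in wildtype cells 14 and 20, at 243 and 118. Erythroid markers summed to 0 to 148 RPKM in KO cells, against 0 to 26.4 RPKM in wildtype cells, with medians of 0. The highest sums, 148, 54.5, 68.9 and 110 RPKM, were those of KO cells 2, 4, 5 and 6, the KO cells with the most mitoribosomal genes detected. The part of these transcripts in the results was not tested. Macrophage and myeloid markers summed to 0 to 1003 RPKM in KO cells (median 6.04), against 0 to 1951 RPKM in wildtype cells (median 71.7). Counts, medians, detection, the subunit difference, the correlations with gene number and the differences of the named genes were also computed on reduced sets of cells. These left out the cells of low pre-HSC marker sum or, separately, those of high mesenchymal marker sum. No cell was left out for its erythroid or its macrophage and myeloid sum. The levels of single genes are given over all cells.

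Promoters of genes for mitochondrial proteins are known to hold sites of NRF1, of ETS factors such as GABP, and of YY1. Promoter sequences from RefSeq (build GRCm38.p6, 250 bases before to 50 after the start) were found for 68 of the 77 genes. Each motif was searched as exact letters on both strands. The ETS core CCGGAAG was in 25 of 68 promoters (36.8%), against 9.93% of all promoters and 24.8% of those of the genes compared between genotypes below. It was in 34.8% of the promoters of cytosolic ribosomal protein genes and 25.0% of those of nuclear oxidative phosphorylation genes. The YY1 letters AAGATGGC were in 12 (17.6%), against 3.19% and 7.32%. The palindromic NRF1 consensus was in 3 (4.41%), against 1.07% and 3.14%. In promoters of cytosolic ribosomal protein genes the YY1 letters were in 8.70% and the NRF1 consensus in 2.90%. In those of nuclear oxidative phosphorylation genes the shares were 14.1% and 7.81%. A match describes the letters of this window and is not a measured site. Stretches are shown for 5 of the 6 genes with the highest levels, to show where these letters lie. They are from the minus strand of chr6:39810887-39810908 for Mrps33, the plus strand of chr5:31613938-31613964 for Mrpl33, the minus strand of chr3:95871480-95871506 for Mrps21, the plus strand of chr5:100798593-100798619 for Mrps18c and the minus strand of chr10:95501905-95501932 for Mrpl42. Capitals mark the ETS core, which reads CTTCCGG where it lies on the opposite strand, and in Mrpl42 the YY1 letters.
Mrps33: gggggcgggcCTTCCGGggacg
Mrpl33: cgcgcatgccCCGGAAGtagtcgttga
Mrps21: gtagcttccgCTTCCGGtccgcagaga
Mrps18c: ggtcacgtgaCTTCCGGcccgggaagc
Mrpl42: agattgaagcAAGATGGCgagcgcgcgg
The core begins 39 bases after the start in Mrps33, 3 before it in Mrpl33, 19 after it in Mrps21 and 156 before it in Mrps18c. Genes with the ETS core had a median level of 4.26 on the log2 scale, against 3.81 for the 43 genes with a promoter that lacked it. The lowest with it was at 1.31 and the lowest without it at 0.29, so both sets ran over most of the range. The other 2 motifs went the other way. Genes with the YY1 letters had a median of 3.60, against 3.99 without them. The 3 genes with the NRF1 consensus had 2.35, against 3.97 without it. A relation of motif to level was not tested. The promoter of Mrpl53, the compared gene with the largest positive difference in KO cells below, holds the core on both strands. The 80 bases before its start, on the plus strand of chr6:83109028-83109107, carry both in capitals.
Mrpl53: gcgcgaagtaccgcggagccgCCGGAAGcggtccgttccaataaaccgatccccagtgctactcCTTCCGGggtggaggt

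Each of the 77 genes was detected in at least 2 cells, but no cell detected all of them. KO cells detected 15 to 73 of them (median 38.5), and wildtype cells 18 to 62 (median 51). In KO cells 1 to 12, in order, the number detected was 15, 67, 40, 69, 73, 60, 50, 34, 22, 29, 37 and 20. In wildtype cells 13 to 18 it was 18, 42, 33, 55, 56 and 55, and in cells 20 to 22 it was 47, 51 and 62. The extremes of the data were thus both KO cells, with wildtype cell 13 near the low end. Without the cells of low pre-HSC marker sum the medians were 50 in KO cells, against 55 in wildtype cells, and the same values resulted without the cells of high mesenchymal marker sum. The part of either marker list in these numbers was not tested.

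Detection of these genes ran with the number of other genes detected in the cell. Spearman's correlation over 21 cells was 0.95 and Pearson's r 0.93, with a Spearman correlation of 0.99 in KO cells (n = 12) and 0.62 in wildtype cells (n = 9). Without the 2 cells farthest from the median gene number, the Spearman correlation was 0.93. It was 0.91 without the cells of low pre-HSC marker sum and 0.94 without those of high mesenchymal marker sum. The points share the library method and the read depth of each cell, which is unknown here. As a share of all genes detected, the mitoribosomal genes made up 0.868 to 1.33% in KO cells, against 0.871 to 1.49% in wildtype cells, ranges that overlap over most of their length. Cells of nearly equal gene number are set side by side here: KO cells 3, 8 and 11, with 3181, 3101 and 3162 genes, detected 40, 34 and 37, and wildtype cell 15, with 3128 genes, detected 33. KO cell 7, with 3767 genes, detected 50, and wildtype cell 17, with 3752, detected 56. Other neighbours differed more: KO cell 10, with 2260 genes, detected 29 and wildtype cell 13, with 2067, detected 18, while wildtype cells 14 and 16, with 4051 and 4176, detected 42 and 55. Cytosolic ribosomal protein genes and nuclear oxidative phosphorylation genes also followed the gene number, with Spearman correlations of 0.85 and 0.94.

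**Figure D1:**
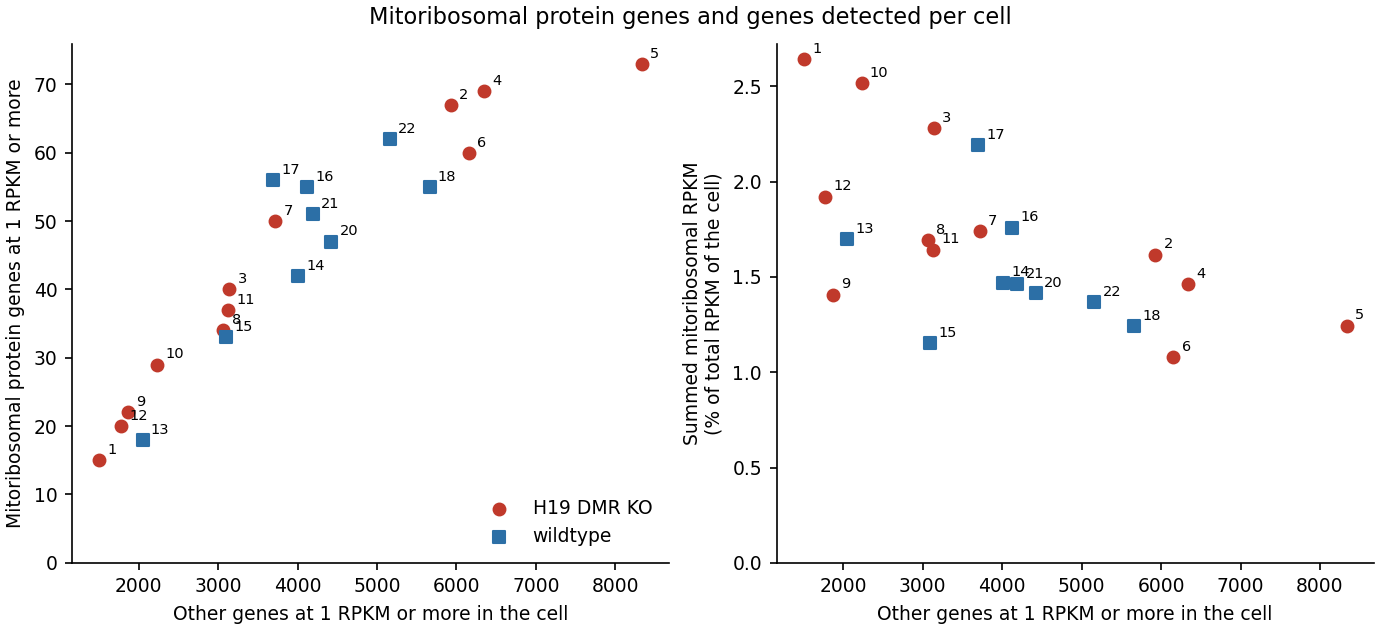
Each point is a cell, with KO cells as red circles and wildtype cells as blue squares, numbered as in the labels; the x axis counts other genes at 1 RPKM or more. On the left, the number of mitoribosomal protein genes detected climbs with the gene number in both genotypes (Spearman correlation 0.95); on the right, their summed RPKM as a percent of the cell's total does not, and runs from 1.08 to 2.64% in KO cells, against 1.15 to 2.19% in wildtype cells.

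The summed level did not follow detection. Members summed to 10857 to 23812 RPKM in KO cells (median 17301), against 10477 to 23005 RPKM in wildtype cells (median 14840). The Spearman correlation of this sum with the number of other genes was -0.42 over 21 cells, -0.55 in KO cells and -0.30 in wildtype cells, and it was -0.51 without either set of cells named above. For the sum as a percent of the total RPKM of the cell it was -0.59, and -0.67 in KO cells and -0.42 in wildtype cells. Sums thus tended to be higher in cells with few detected genes. KO cell 1 had 22879 RPKM from 15 genes, of which Mrps33 alone gave 36.4% and the 5 highest genes 89.1%. KO cell 5 had 12363 RPKM from 73 genes, and its 5 highest gave 28.7%. The median RPKM of the genes detected in a cell was 92.8 to 791 in KO cells (median 270), against 110 to 639 in wildtype cells (median 171), and its Spearman correlation with the gene number was -0.87.

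Over all 1617 values, 34.6% were listed at 0, 7.54% lay between 0 and 1 RPKM, 6.06% between 1 and 10, 15.8% between 10 and 100, and 35.9% at 100 or more. A gene was thus mostly either at 0 or well above 10 RPKM in a given cell. The table gives no read counts, so a value of 0 can be a missed molecule or a failed estimate. In all, 57.8% of the values reached 1 RPKM, against 27.1% over all genes, 85.7% over the 94 genes with cytosolic ribosomal protein symbols and 81.0% over 79 nuclear oxidative phosphorylation genes. On the mean log2 scale over cells, the median gene of the mitochondrial ribosome stood at 3.95, that of the cytosolic ribosome at 10.2, and that of oxidative phosphorylation at 7.64. The 47 genes with bacterial homologues reached 1 RPKM in 60.5% of values, with a median level of 4.28. The 29 mitochondria-specific ones did so in 52.9%, with a median level of 3.07. The remaining gene, Mrps36, is now assigned to the alpha-ketoglutarate dehydrogenase complex and was kept for its symbol, at 5.73. Of the 77 genes, 25 overlap the span of another annotated gene, and the counting is not stated to use strand, so their reads may be shared.

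**Figure D2:**
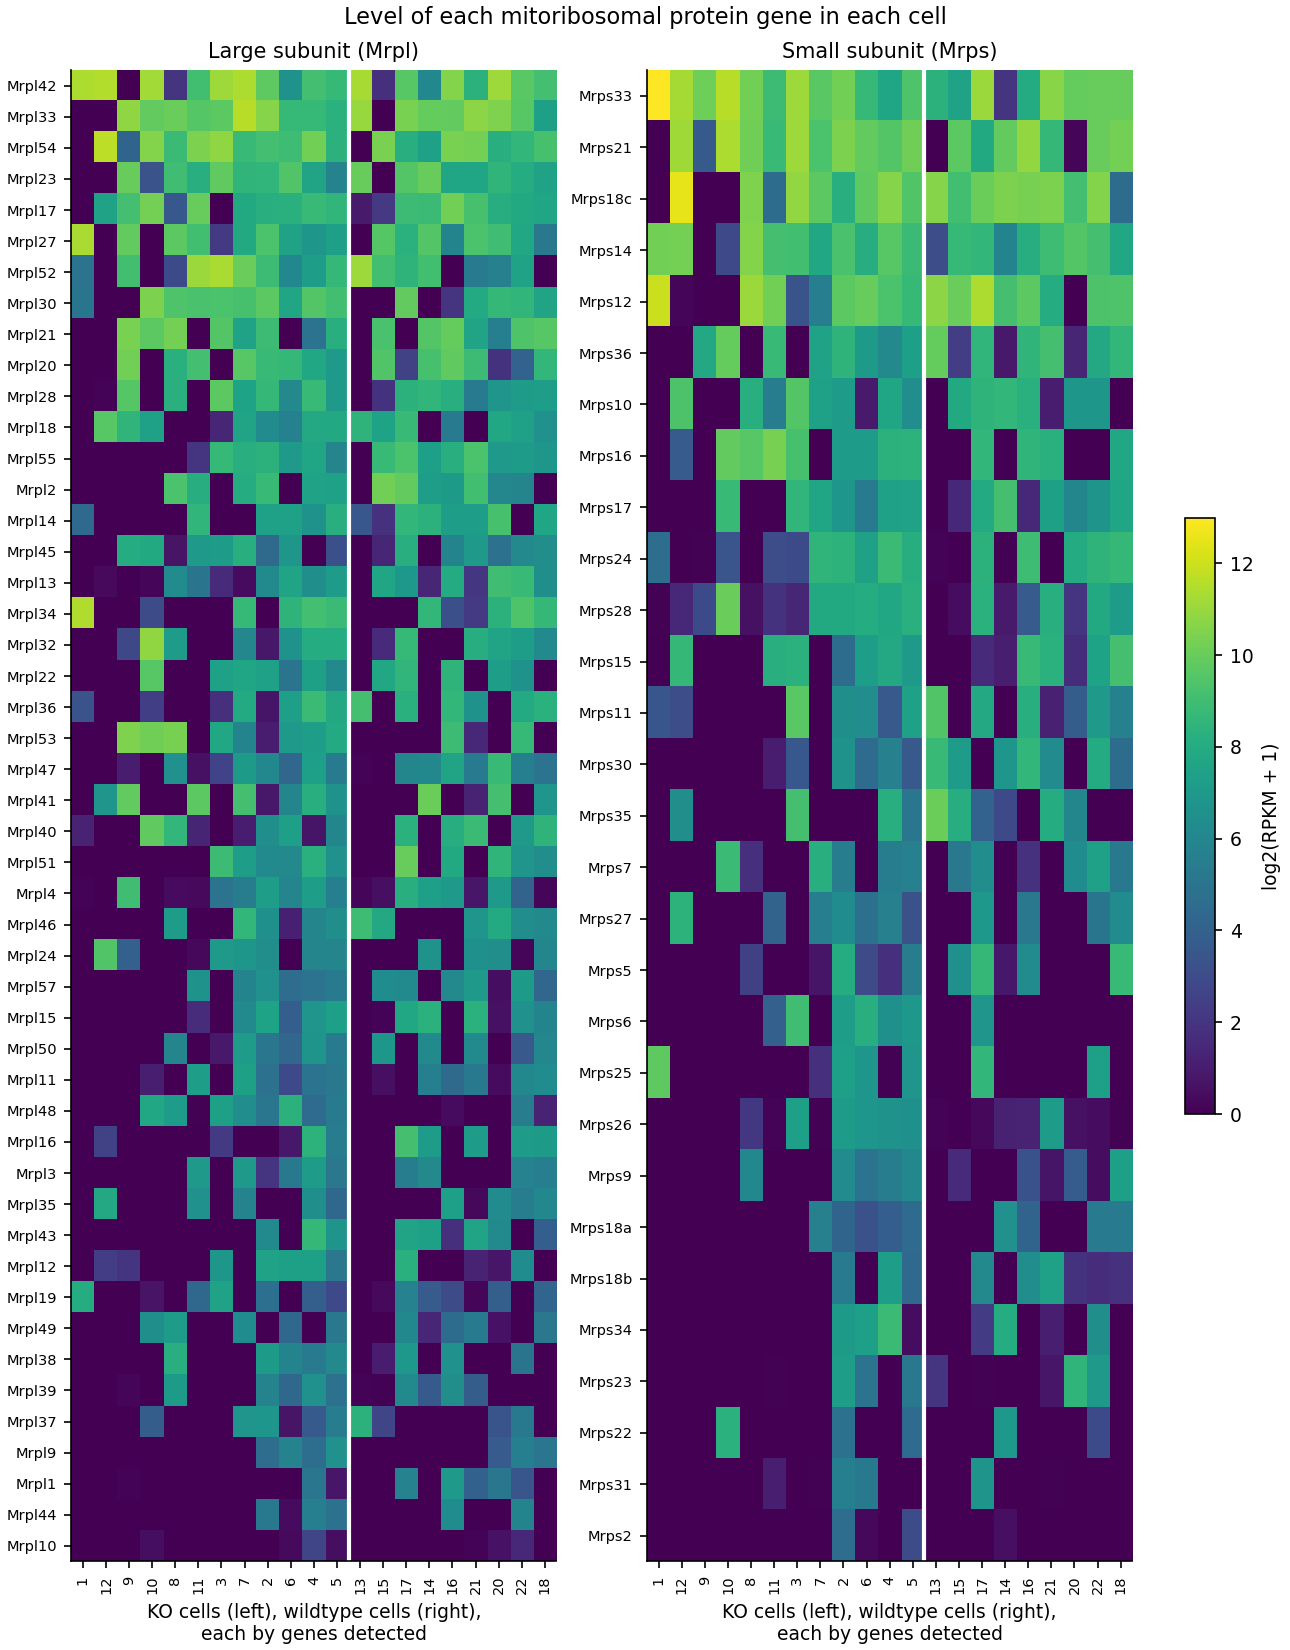
Rows are the genes of the large subunit (left panel) and the small subunit (right panel), from the highest to the lowest mean level; columns are cells, KO left and wildtype right of the white line, each from few to many genes detected. Colour is log2(RPKM + 1): Mrps33 is lit in all 21 cells, while Mrpl10 and Mrps2 reach 1 RPKM in 2 cells each.

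The levels of the single genes spanned nearly the whole scale. Mrps33, a mitochondria-specific protein of the small subunit, was the highest at 9.49 ± 2.21 on the log2 scale (SD over 21 cells) and the only one detected in every cell. Its 12 KO cells had 8335, 1217, 2195, 196, 678, 417, 810, 1188, 1105, 3151, 484 and 2428 RPKM. Its wildtype cells had 324, 2.83, 176, 253, 2131, 1001, 979, 1639 and 1009 RPKM. The ranges overlap, with wildtype cell 14 far below the rest and KO cell 1 above them. Mrpl42 (8.55 ± 3.41, detected in 20 cells), Mrpl33, the homologue of bacterial L33 (8.44 ± 3.66, 18 cells), and Mrpl54 (8.32 ± 3.18, 19 cells) followed. Mrps21, the homologue of bacterial S21, was at 8.25 ± 3.77 and Mrps18c at 8.17 ± 3.89, each in 18 cells. The differences between these neighbours in the order are far under their SDs. Mrps14 was also found in 20 cells, at 7.89. Genes that were highest in at least 1 cell numbered 8, led by Mrpl33 and Mrps18c with 4 cells each.

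At the low end, Mrpl10, which in bacteria anchors the stalk that recruits translation factors, was at 0.29 ± 0.65 and reached 1 RPKM in KO cell 4 (5.48 RPKM) and wildtype cell 22 (1.72 RPKM) alone. Mrps2, the homologue of bacterial S2, reached 1 RPKM in KO cells 2 and 5, at 23.9 and 7.17 RPKM, and in no wildtype cell, the highest of which had 0.45 RPKM. With 0 of 9 cells, the exact 95% interval for wildtype cells runs to 33.6%, and that for the 2 of 12 KO cells from 2.09 to 48.4%, and these intervals overlap. Mrps31 (0.90, 4 cells), Mrps22, whose human counterpart is mutated in a respiratory chain disorder (1.31, 5 cells), Mrpl44, which lies near the exit tunnel (1.35, 5 cells), and Mrpl1 of the L1 stalk, in 6 cells, were next. Proteins present together in 1 particle thus had RNA levels that differed widely. In the stalk and its base, Mrpl10, Mrpl12, Mrpl11 and Mrpl53 stood at 0.29, 2.64, 2.97 and 4.14, but Mrpl54 at 8.32. Of the 3 paralogues of bacterial S18, Mrps18c was at 8.17, while Mrps18a and Mrps18b were at 2.05 and 2.02, each detected in 9 cells. Mrps18b and Mrps18c lie in the small subunit of the mammalian particle, and Mrps18a in the large one.

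Cells that detected more large subunit genes tended to detect more small subunit genes. The share of large subunit genes detected was 18.8 to 95.8% in KO cells, against 18.8 to 85.4% in wildtype cells, and that of small subunit genes 13.8 to 96.6% in KO cells, against 31.0 to 75.9% in wildtype cells. The shares had a Spearman correlation of 0.89 over 21 cells. Since detection ran with the gene number for all members (0.95) and for cytosolic ribosomal (0.85) and oxidative phosphorylation genes (0.94), this shows nothing particular to the subunits. The summed RPKM of the subunits had a Spearman correlation of 0.086, with -0.22 in KO cells and 0.48 in wildtype cells. The mean level of large minus small subunit genes was 0.14 ± 1.15 in KO cells (SD, n = 12, from -1.53 in cell 12 to 2.13 in cell 7) and 0.34 ± 0.77 in wildtype cells (SD, n = 9, from -0.79 in cell 13 to 1.86 in cell 20). It was above 0 in 7 of 12 KO cells and 6 of 9 wildtype cells, so neither subunit stood above the other beyond the spread between cells. The sign depended on which genes entered: over the compared genes alone it was -0.47 in KO cells, against -0.44 in wildtype cells. With Mrps18a and Mrps30 moved to the large subunit, where structures place them, it was -0.09 in KO cells, against 0.32 in wildtype cells. Without the cells of high mesenchymal marker sum it was -0.02 in KO cells, against 0.02 in wildtype cells, and without those of low pre-HSC marker sum 0.10 in KO cells, against 0.40 in wildtype cells. Large subunit genes held 36.9 to 89.7% of the summed level in KO cells, against 49.8 to 75.4% in wildtype cells.

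**Figure D3:**
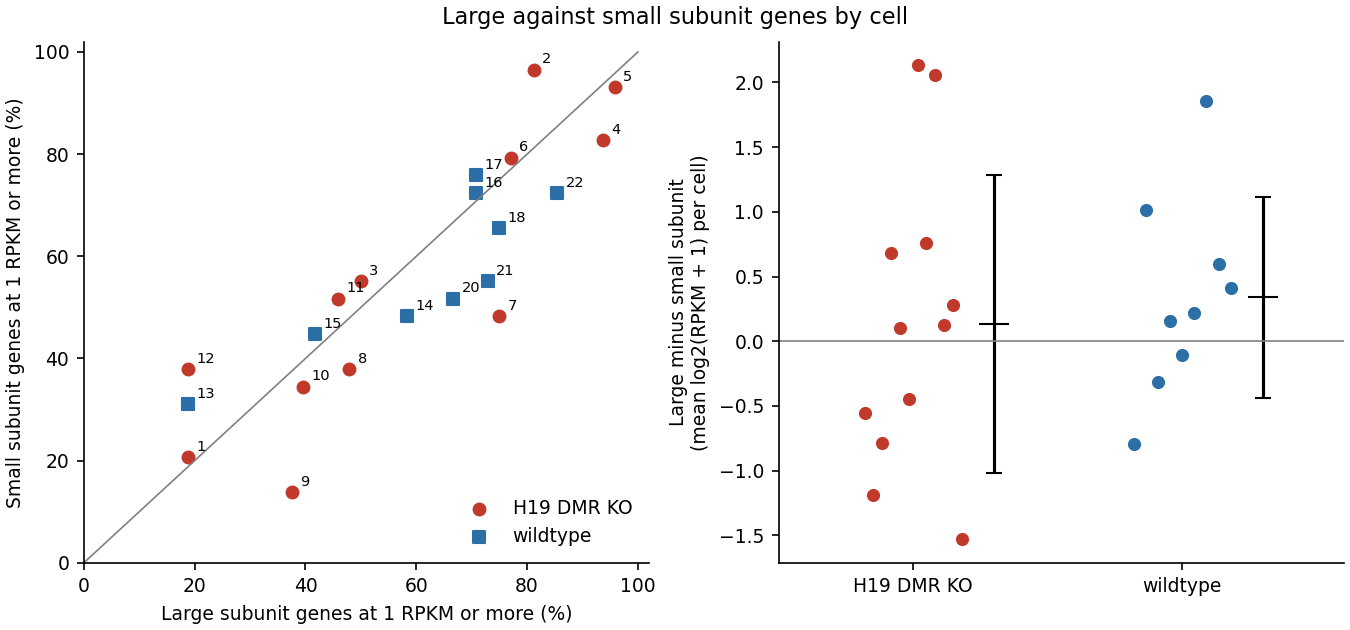
Left, the percent of large subunit genes detected against the percent of small subunit genes detected in each numbered cell, with the line of equal shares; points of both genotypes lie along it. Right, mean log2(RPKM + 1) of large minus small subunit genes per cell, with mean and SD as bars (0.14 ± 1.15 in KO cells, 0.34 ± 0.77 in wildtype cells); both groups straddle 0.

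For the genotype comparison, mean log2(RPKM + 1) over KO cells minus that over wildtype cells was computed for the 2854 genes whose detected share, averaged over the genotypes, was at least 50%. Of the 77 genes, 51 met this and 26 did not. A difference of 1 or more on this scale was counted as large; this sets a size and tests nothing. Higher in KO cells by this rule were 6 of 51 genes (11.8%), against 8.13% of all compared genes. Lower in KO cells were 15 of 51 (29.4%), against 29.4% of all compared genes, and in either direction the rule took 37.5% of all compared genes. The median difference of the 51 genes was -0.38 and that of all compared genes -0.41, a gap of 0.04 before rounding. Among all 77, 10 were higher and 20 lower, against 6.44% and 11.6% of the 13475 genes detected in any cell, most of which are detected in few cells. Of the 26 outside the comparison, 4 were higher (15.4%) and 5 lower (19.2%). The shares over all genes outside the comparison were not computed, so these counts show nothing particular to the 26.

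The spread between cells was larger than most of these differences. In 47 of the 51 genes the difference was smaller than the SD of either genotype, and only that of Mrps30 was larger than both. In none of the 51 did the RPKM ranges of the genotypes separate, which they did in 0.0701% of compared genes. Between subunits, 3 of 34 large subunit genes were higher and 9 lower, with a median of -0.39. Of 17 small subunit genes, 3 were higher and 6 lower, with a median of -0.15. When each cell was shifted to an equal median over the compared genes, 24 genes were higher, 3 lower and the median was 0.93, but the median of all compared genes moved along, to 0.89. The gap between the medians stays at 0.04 by construction, since this shift moves the difference of every gene by the same amount. It is thus no second estimate of the gap. Under other settings the gap lay on either side of 0. Without the cells of high mesenchymal marker sum, 11 of 54 genes were higher and 16 lower, against 17.6% and 19.4% of all compared genes. The median there was 0.16, against -0.05 for all compared genes. Without the cells of low pre-HSC marker sum, 7 of 57 were higher and 20 lower, against 11.7% and 27.1%, and the median was -0.45, against -0.32. Without the 2 cells farthest from the median gene number it was -0.94, against -0.69, and with medians over cells -0.65, against -0.34. Single cells moved it too. Without wildtype cell 13, 23 of 54 genes were lower, against 38.4% of all compared genes, and the median was -0.75, against -0.65. The median was -0.77 without KO cell 7, -0.68 without wildtype cell 15 and -0.11 without KO cell 1, against -0.47, -0.50 and -0.27 for all compared genes. The direction of single genes between genotypes below is thus a description of these cells under the deposited scaling.

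**Figure D4:**
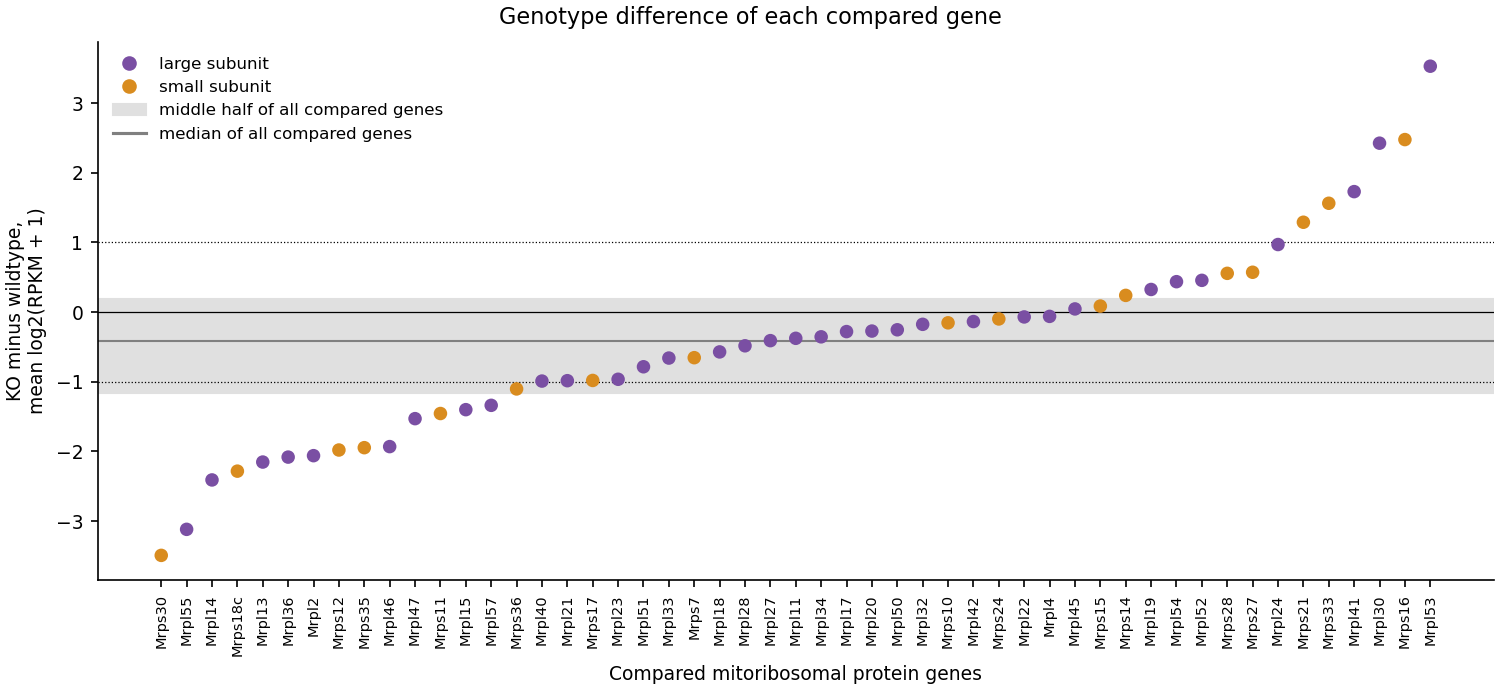
Each point is 1 of the 51 compared genes, ordered by the difference of mean log2(RPKM + 1), KO minus wildtype, with large subunit genes in purple and small subunit genes in orange. The grey line is the median of all 2854 compared genes (-0.41), the grey band runs from their lower to their upper quartile (-1.16 to 0.18), and dotted lines mark 1 and -1; the genes run from -3.49 for Mrps30 to 3.53 for Mrpl53.

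Mrpl53, a mitochondria-specific protein beside the stalk, had the largest positive difference of the compared genes. KO cells 1 to 12 had 0, 1.03, 223, 148, 244, 132, 57.2, 1272, 1410, 1175, 0 and 0 RPKM. Wildtype cells had 483 RPKM in cell 16, 1.82 in cell 21 and 423 in cell 22, and the other 6 were listed at 0. It was detected in 9 of 12 KO cells and 3 of 9 wildtype cells, with exact 95% intervals of 42.8 to 94.5% and 7.49 to 70.1%, which cover counting error only and overlap. The mean level was 5.66 ± 4.23 in KO cells, against 2.13 ± 3.83 in wildtype cells (SD), a difference of 3.53. Its span, chr6:83109108-83109932, overlaps Ccdc142, so reads of that gene may enter the value.

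Mrps16, the homologue of bacterial S16, whose human counterpart is mutated in a fatal infant lactic acidosis, had a difference of 2.48. It was listed at 0 in KO cells 1, 7 and 9, had 12.4 RPKM in KO cell 12, and 143 to 1310 RPKM in the other 8. In wildtype cells it had 368, 386, 219 and 304 RPKM in cells 16, 17, 18 and 21 and was listed at 0 in the other 5. The higher mean of KO cells came with more cells detected and with a higher top value. Mrpl30 had a difference of 2.42, with 0 to 1386 RPKM in KO cells (median 600, detected in 10 of 12), against 0 to 939 RPKM in wildtype cells (median 195, 6 of 9). Mrpl41 had one of 1.73, with medians of 79.3 RPKM in KO cells, against 0 in wildtype cells, but the highest single value, 1087 RPKM, was in a wildtype cell. The abundant Mrps33 and Mrps21 differed by 1.56 and 1.29. For Mrps33 the difference was 0.73 without wildtype cell 14, 0.63 without the cells of high mesenchymal marker sum and 0.16 without those of low pre-HSC marker sum. For Mrps21 it was 0.35 without wildtype cell 13 and 0.38 without wildtype cell 20. Of the compared genes that the naming rule took, 14 had a difference of 1 or more in size. Apart from Mrps33, Mrps21 and, below, Mrps18c, the other 11 stayed at that size without any 1 cell or either set of marker cells. All were picked for size in these same cells, so this was no independent check. For Mrps21, detected in 11 of 12 KO cells and 7 of 9 wildtype cells, the medians were 1046 RPKM in KO cells, against 846 RPKM in wildtype cells. Mrpl24, near the exit tunnel, and Mrps27, a pentatricopeptide repeat protein, differed by 0.97 and 0.57, under the size rule. Over the cells within the shared range of gene numbers they were at -0.02 and -0.66, so their direction was not stable.

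Among the genes lower in KO cells, Mrps30 had the largest difference. This protein carries a small subunit symbol but lies in the large subunit of the mammalian particle. KO cells 1 to 12 had 0, 96.4, 10.7, 49.5, 11.4, 22.7, 0, 0, 0, 0, 1.08 and 0 RPKM. Wildtype cells 13 to 18 had 438, 114, 141, 383, 0 and 23.2 RPKM, and cells 20, 21 and 22 had 0, 77.4 and 254 RPKM. In 6 wildtype cells the value was above 70 RPKM, which only KO cell 2 exceeded in its group. The mean level was 2.09 ± 2.54 in KO cells, against 5.58 ± 3.41 in wildtype cells, a difference of -3.49. It was detected in 6 of 12 KO cells and 7 of 9 wildtype cells.

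Mrpl55, a part of the central protuberance, had a difference of -3.12. Its KO cells were at 0 in 5 cells and reached 415 RPKM in cell 3 (median 31.6). Its wildtype cells had 117 to 645 RPKM (median 160), apart from cell 13, which was listed at 0. Mrpl14, next to which the assembly factor Malsu1 binds in the human particle, differed by -2.41, with medians of 10.2 RPKM in KO cells, against 154 RPKM in wildtype cells. Its span overlaps Tmem63b. Mrps18c differed by -2.28: KO cells ran from 0 to 5893 RPKM (median 782), and wildtype cells from 23.1 to 1603 RPKM (median 1307). Its difference was -0.31 without the cells of high mesenchymal marker sum and -0.79 without those of low pre-HSC marker sum. Both the lowest and the highest value of Mrps18c were thus in KO cells, of which 3 were under 1 RPKM. Mrpl13, Mrpl36 and Mrpl2 differed by -2.15, -2.08 and -2.06, with medians of 16.6, 3.33 and 86.6 RPKM in KO cells, against 121, 242 and 132 RPKM in wildtype cells. Mrpl2 is the homologue of bacterial L2, a protein close to the peptidyl transferase centre, and its span overlaps Klc4. Mrps12, the homologue of bacterial S12 of the decoding centre, differed by -1.98, with 0 to 3988 RPKM in KO cells (median 527), against 0 to 2728 RPKM in wildtype cells (median 686).

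**Figure D5:**
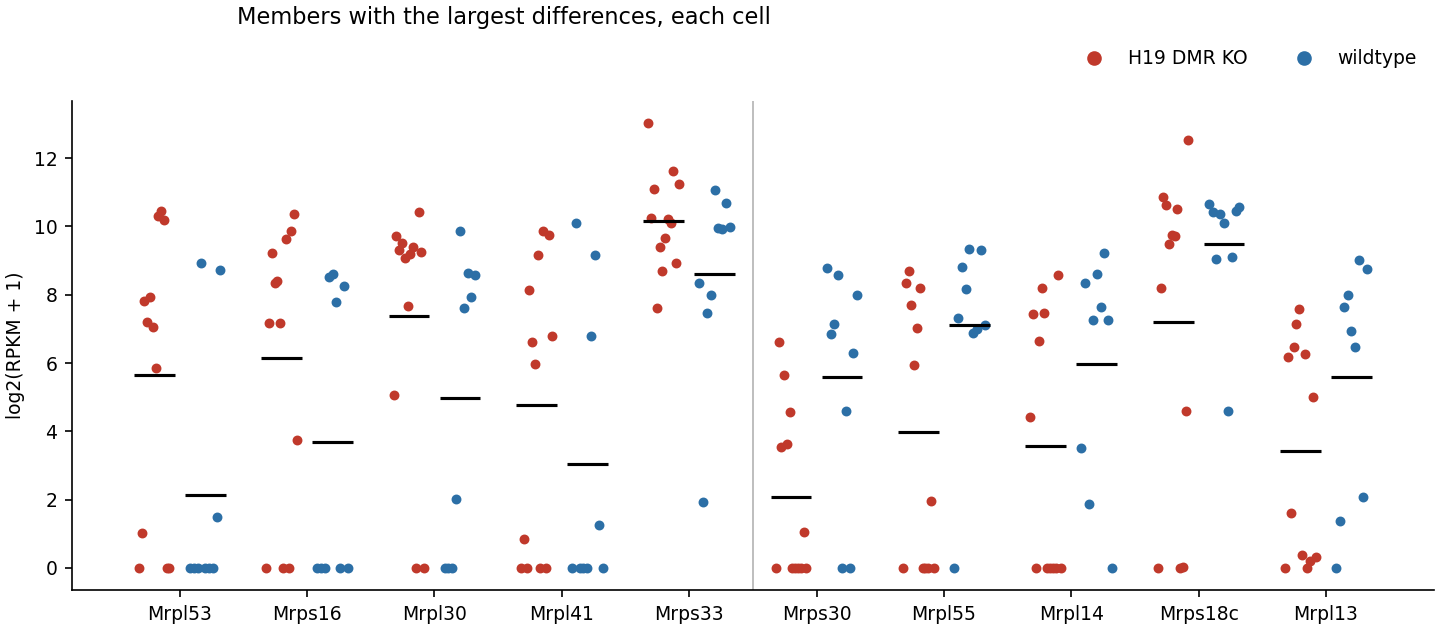
Level, log2(RPKM + 1), of the 5 compared genes with the largest positive (left of the grey line) and the 5 with the largest negative differences (right of it). Each point is a cell, red for KO and blue for wildtype, and black bars are means; the groups overlap in all 10 genes, and most carry cells at 0 in both genotypes.

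The largest differences outside the comparison were in genes detected in few cells of 1 genotype, and these were picked after their values were seen. Mrpl48, a mitochondria-specific protein of the central protuberance, was detected in 8 of 12 KO cells and 2 of 9 wildtype cells, at 0 to 330 RPKM in KO cells (median 36.2), against 0 to 44.2 RPKM in wildtype cells (median 0.01), with a difference of 3.55. Its span overlaps Rab6a. Mrps6, the homologue of bacterial S6, was detected in 6 of 12 KO cells and 1 of 9 wildtype cells (2.73), and its span overlaps Slc5a3. Mrpl16, the homologue of bacterial L16, had a difference of -2.57 and Mrpl1 one of -2.32. Within the central protuberance, the 7 genes ran from -3.12 for Mrpl55 to 3.55 for Mrpl48, and in the stalk and its base the 5 genes ran from -0.38 for Mrpl11 to 3.53 for Mrpl53. The 7 genes of the exit tunnel and its rim stayed within 1 of 0, with Mrpl24 at 0.97 and Mrpl23 at -0.96 just inside. Without the cells of high mesenchymal marker sum, Mrpl24 was at 2.82. Of the 13475 genes detected in any cell, 6.44% were higher and 11.6% lower by 1 or more, so most genes stayed within 1. Over all 77, the share of cells with the gene detected was higher in KO cells for 26 (33.8%), lower for 48 (62.3%) and equal for 3. Among the 13475 genes detected in any cell it was higher for 47.1% and lower for 48.2%, but most of those are detected in few cells. Among the 51 compared genes it was lower for 34 (66.7%), against 63.3% of all compared genes.

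Of the 6 genes on chromosome 7, Mrpl23 lies nearest to H19. Its span, chr7:142532467-142540747, ends 34.8 kb before that of H19, with 1 annotated gene between them, and it is given for this position and not for its values. Mrpl23 encodes the homologue of bacterial L23 at the exit tunnel. KO cells 1 to 12 had 0, 370, 920, 191, 55.0, 697, 358, 525, 994, 9.09, 283 and 0 RPKM. Wildtype cells 13 to 18 had 1007, 991, 0, 198, 734 and 177 RPKM, and cells 20, 21 and 22 had 368, 206 and 262 RPKM. The groups overlap throughout, and the difference of -0.96 is under the size rule and under both SDs (3.63 in KO cells, 3.04 in wildtype cells). The medians went the other way, at 321 RPKM in KO cells, against 262 RPKM in wildtype cells. Its pseudogene row Mrpl23-ps1 had nearly the same value in several cells, with 1008 RPKM for KO cell 9 and 1009 RPKM for wildtype cell 13, so the split of reads between the copies is uncertain. The other 3 pseudogene rows of the family reached 48.9 RPKM at most.

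Mrpl46 and Mrps11 are the only pair of these genes that start next to each other, head to head on chromosome 7 with a gap of 41 bases (chr7:78783090-78783130, shown on the plus strand). Mrpl46 belongs to the central protuberance and Mrps11 is the homologue of bacterial S11.
Gap: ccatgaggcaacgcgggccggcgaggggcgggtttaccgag
Both were detected in 9 of 21 cells, 1 of them alone in 8, and neither in 4. Mrpl46 was at 0 to 382 RPKM in KO cells (median 0.60), against 0 to 495 RPKM in wildtype cells (median 82.1), with a difference of -1.93. Mrps11 was at 0 to 820 RPKM in KO cells (median 8.75), against 0 to 706 RPKM in wildtype cells (median 52.1), with one of -1.46. In KO cell 3, Mrps11 had 820 RPKM with Mrpl46 at 0, and in KO cell 7 Mrpl46 had 382 RPKM with Mrps11 at 0. The cells that detect 1 gene of the pair therefore need not detect the other.

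Of the mitoribosomal proteins known under other names, 5 were compared, with 1 higher and 3 lower in KO cells and a median of -1.16. Of all compared genes, 8.13% were higher and 29.4% lower, with a median of -0.41. Chchd1 differed by -1.52, with medians of 250 RPKM in KO cells, against 415 RPKM in wildtype cells. Gadd45gip1 differed by 1.36, with medians of 8.35 RPKM in KO cells, against 0 in wildtype cells. Most genes of the factors that load, build and supply the mitochondrial ribosome were detected too rarely to compare. Of 12 translation factors, 2 were compared and both were lower: Tsfm, the nucleotide exchange partner of the elongation factor Tu, by -1.79 and the initiation factor Mtif3 by -1.13. Of 21 aminoacyl-tRNA synthetases listed, Kars, which serves the cytosol as well, was the 1 compared, at 0.51. Of 22 assembly and rRNA modification genes, 2 were compared, Mterf3 at -2.11 and Fastkd2 at 1.63. Of the transcription genes, Slirp, which protects mitochondrial mRNAs, was at -0.88, and of the biogenesis regulators Nrf1 was at 0.82.

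The mRNAs that mitochondrial ribosomes translate were as a group abundant in every cell, with sums of 29745 to 71766 RPKM in KO cells, against 37104 to 69315 RPKM in wildtype cells. All 13 were compared, 0 were higher and 3 lower in KO cells, and their median was -0.15. All genes whose symbol starts with mt-, a wider set than these 13, held a median of 5.84% of the total RPKM in KO cells. In wildtype cells this wider set held 5.80%. Of the 13 mRNAs, mt-Atp8 and mt-Nd6 had the largest differences, -2.81 and -1.14. For mt-Atp8, KO cells had 0 to 458 RPKM (median 194), against 154 to 1039 RPKM in wildtype cells (median 427). In KO cells mt-Atp8 was detected in 9 of 12, and mt-Atp6 in all 12, at 8719 to 21668 RPKM. The difference of mt-Atp6 was -0.29. How reads were split between these 2 genes is not known. Among 82 compared genes with cytosolic ribosomal protein symbols, 2 were higher and 15 lower, with a median of -0.25. The 94 symbols of that list include 10 kinases and binding proteins, among them Rps19bp1, which had a difference of -2.42; Rps4l was at 3.37. Among 72 compared nuclear oxidative phosphorylation genes, 6 were higher and 30 lower, with a median of -0.72. There, the complex I subunits Ndufa3 and Ndufb11 had the largest differences, -3.65 and -3.30. Against the 8.13% higher and 29.4% lower of all compared genes, no test of these lists was made, since each genotype counted as 1 sample.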

How the data were processed

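RNA was sequenced from single T1 pre-HSCs after template switching, with ERCC spike-ins in the lysis buffer, per the labels' protocols. The authors deposited RPKM values per gene, made with Cufflinks 2.1.0 on mm10 per the submitters' processing notes. The sources used here give neither the aligner nor the annotation, nor how reads with several matches were handled. Read numbers cannot be recovered from these values, so the depth of each cell and the counting error of each gene are not known. RPKM divides by each cell's total, so a few high genes lower all others, and overlapping genes or near-identical copies can share reads.

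All 22 T1 columns were assigned by the cell numbers in their names. Wildtype cell 19 was left out, and no value was imputed. The deposited table of the 26 adult HSCs has 0 genes that match the symbols, and the 5 methylation libraries were not used here. Genes entered the comparison when the mean of both genotypes' shares of cells at 1 RPKM or more was at least 50%. The pseudocount was 1. Python 3.11.15, pandas 2.3.3, numpy 2.4.6, scipy 1.17.1 and matplotlib 3.10.9 were used. Coordinates are those of RefSeq on GRCm38.p6, matched by symbol.

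The 77 genes and all lists were chosen with earlier results of these data known. The naming rule took the 8 largest differences in each direction among compared genes whose mean and median differences have the same sign, the 6 highest and the 6 lowest levels, genes whose genotypes do not overlap or that are listed at 0 in all cells of a genotype, the 3 Mrps18 paralogues, and from each related list the 2 compared genes with the largest difference. Alternatives were other pseudocounts, filters, scalings and sets of cells.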

Additional observations from a re-analysis of the deposited data

Results flagged for a closer look

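In the 9 wildtype cells, 10 of 32 sets of values tested held a cell whose gap to its nearest neighbour was large for the range of the set, where chance gives about 1 in 20 for normally distributed values. That rate does not hold here, since many values are 0 and the genes were named for extreme levels or differences. Values here are log2(RPKM + 1). Of the low cells, Mrps33 was at 1.94 in wildtype cell 14, with the others at 7.47 to 11.1. Mrps18c was at 4.59 in wildtype cell 18, with the others at 9.05 to 10.6. Mrpl33 was at 0 in wildtype cell 15, with the others at 7.38 to 11.0. Wildtype cell 13 was at 0 for both Mrpl54 and Mrpl55, with the others at 7.45 to 10.4 and at 6.88 to 9.33. Mrps12 was at 0 in wildtype cell 20, with the others at 8.05 to 11.4. Of the high cells, Mrps31 was at 6.72 in wildtype cell 17, with the others at 0 to 0.07. Mrps22 was at 6.96 in wildtype cell 14, with the others at 0 to 2.91. Mrpl10 was at 1.44 in wildtype cell 22, with the others at 0 to 0.62. Mrps2 was at 0.54 in wildtype cell 14, with the others at 0. The 12 KO cells were too many for this rule and were not examined.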

How the results depend on the processing

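No paired analysis was possible because KO and wildtype cells share no cell number. Sets of cells chosen by marker sums, and the shift of wildtype cell 19, were chosen after seeing the data. The median difference, -0.38, was -0.71 with a pseudocount of 0.1. It turned to 0.93 with equal medians, as that of all compared genes did, and to 0.16 without the cells of high mesenchymal marker sum; the cause was not tested. The 6 of 51 genes higher in KO cells, against 8.13% of all compared genes, became 10 of 77 without a filter (5.85%), 10 of 61 with a filter met in either genotype (11.4%), 10 of 43 over cells in the shared range of gene numbers (16.0%), 11 of 54 without the cells of high mesenchymal marker sum (17.6%) and 24 of 51 with equal medians (45.1%). The 15 lower, against 29.4%, became 24 with medians over cells (35.5%) and 3 with equal medians (5.64%). The level was 3.97 in KO cells, against 4.25 in wildtype cells; with pseudocounts of 0.1 and 10 it was 2.55 and 5.58 in KO cells, against 3.00 and 5.73 in wildtype cells. The wildtype large minus small subunit difference was -0.44 over compared genes alone. The correlation of detection with gene number was 0.62 in wildtype cells alone, and that of the summed level was -0.55 in KO cells and -0.30 in wildtype cells. Leaving out each cell in turn gave 4 to 8 higher genes, 13 to 23 lower genes and medians of -0.77 to -0.11; median detection was 37 to 40 for KO cells and 49 to 53 for wildtype cells. The 14 compared genes with a difference of 1 or more that the naming rule took kept their direction under each alternative computed for them. They were picked for the size of their differences in these same cells, so a kept direction is no independent check. Under medians over cells the direction was fixed beforehand, since the naming rule took only genes whose mean and median differences share a sign. Differences of the 14 were not computed under other filters, with wildtype cell 19 shifted or without the cells farthest from the median gene number. The size was under 1 for 5 with equal medians (Mrpl13, Mrpl2, Mrpl36, Mrps12 and Mrps18c), 4 with medians over cells (Mrps12, Mrps18c, Mrps21 and Mrps33), Mrpl41 and Mrps21 with a pseudocount of 10, Mrpl41 over the shared range, and Mrps18c and Mrps33 without either set of marker cells. With 12 and 9 cells of unknown depth and embryo, a difference between genotypes cannot be told apart from one between embryos or sorts.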
